A study of Mus musculus with 14 samples.

Results

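The Zfp genes described here are the mouse zinc finger genes named Zfp and a number whose mean over 7 brain RNA libraries was at least 3 FPKM (fragments per kilobase of transcript, scaled to the size of the library). Of 368 genes so named in a table of 31507 genes, 128 met this minimum. The members were chosen by that mean level and by no comparison of groups. Of the others, 154 had a mean of 1 to under 3 FPKM, 86 a mean under 1 FPKM, 4 of them at 0 in each of the 7 libraries. Just inside the minimum were Zfp319 (3.04 FPKM), Zfp865 (3.02 FPKM) and Zfp605 (3.01 FPKM), and just outside it were Zfp330 (3.00 FPKM), Zfp811 (2.99 FPKM) and Zfp772 (2.98 FPKM).

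Most proteins of this kind carry rows of C2H2 zinc fingers, each a short loop held by a zinc ion, that together read a stretch of DNA. Many of them also carry a KRAB domain, which recruits the corepressor Trim28 and with it the histone methyltransferase Setdb1, and these proteins are best known for silencing transposable elements and for keeping imprinted genes methylated. Others bind RNA, ubiquitinate ribosomes or act in the development of neurons and glia. N6-methyladenosine (m6A) is a methyl mark set on mRNA by the Mettl3 complex, most often near stop codons and in long exons, and can alter how long an mRNA lasts or how well it is translated.

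The samples were brain tissue of mice: 2 with an intracerebral haemorrhage (ICH) treated by acupuncture at the GV20 point for 7 days, 2 with ICH, labelled as given autologous blood, and 3 sham-operated. The acupuncture samples are labelled with that treatment alone, and the series' design text says that mice with ICH were treated. Each sample gave an input library of poly(A) RNA and an m6A library (IP) pulled down with an antibody. The strain, age, sex, brain region and time after surgery were not in the labels, which also do not say whether replicates came from separate animals, so p-values measure the spread between these samples only. The FPKM values cover the input libraries. The authors' m6A values are peaks per group, with no value per library.

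The members' summed level was 741 and 780 FPKM in the acupuncture libraries, 773 and 826 FPKM in the ICH libraries and 808 to 817 FPKM in the sham libraries, between 0.373% and 0.459% of all FPKM. ICH replicate 2 stood apart, with a median absolute difference from ICH replicate 1 of 0.30 over the members and 0.28 over 9477 other genes at or above 3 FPKM, on the log2(FPKM + 1) scale. For the members this difference was 0.11 between the acupuncture libraries and 0.08 to 0.09 between sham libraries. Summed markers of microglia and macrophages were 479 FPKM in both acupuncture libraries and 350 to 414 FPKM in ICH, against 73.7 to 92.8 FPKM in sham. Summed markers of striatal neurons were 131 to 162 FPKM after acupuncture and 163 to 202 FPKM in ICH, against 367 to 397 FPKM in sham. The 2 acupuncture libraries, on which every acupuncture mean rests, differed from each other in summed choroid plexus markers (1.40 and 337 FPKM, against 443 to 477 FPKM in sham) and oligodendrocyte markers (473 and 738 FPKM). The part of these differences in the members' values was not tested. In such bulk samples, fewer cells of a type and less RNA per cell cannot be told apart.

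Short sequences at the starts of 9 members are shown. In the first 6, the 5′ bound of an m6A peak lay within 50 bases of the annotated start in all 3 groups. The last 3 are the members whose RNA passed the test in some comparison of 2 groups. The sequences come from RefSeq (GRCm38.p6), 10 bases before the annotated start and 20 after it, with the first transcribed base in capitals.
Zfp830: ctcggaagctAgactcgcctgagtcctggg
Zfp1: cacctcagcgTcacagctccgaggactctg
Zfp329: caggatctgcGcatgcgcagttgttgcgac
Zfp281: cacggggctcGccgagcgcccctctggtcc
Zfp958: gccatactgcAagtccagctccgccgctga
Zfp263: accggaagtcCgtcctgactagcggccgtt
Zfp949: gtttcccagaGgctcatgggtaatgtagtc
Zfp365: tcctgcatccCtccccgtgatgtcagcgga
Zfp941: gcgtgctttcGctggagctggccatctttg
Both Zfp830 and Zfp958 start with A, the base that can carry a further methyl group beside the cap and that m6A antibodies also bind. The other 7 start with G, C or T. Zfp830 lies at chr11:82764335-82764364 on the plus strand, Zfp949 at chr9:88548010-88548039 on the plus strand, Zfp365 at chr10:67912643-67912672 on the minus strand and Zfp941 at chr7:140822159-140822188 on the minus strand, as printed.

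The Zfp genes were mostly of low and even level. Their means had a median of 4.32 FPKM, and 49 reached 5 FPKM, 11 reached 10 FPKM and 3 reached 20 FPKM. All 128 were above 0 in every library and passed the minimum mean of 1 FPKM for testing, which the choice of members fixes. In 105 members all 3 group means were at least 3 FPKM. They lay on 19 chromosomes, with 25 on chromosome 7, 14 on chromosome 17, 11 each on chromosomes 5 and 8 and 10 on chromosome 6. Of the 128, 63 had another Zfp gene within 200 kb. Near-identical neighbours can share reads, and the sources used here do not say how such reads were counted. In addition, 22 members overlapped another gene on the same strand and 31 one on the other strand.

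The most abundant member was Zfp365, also called DBZ, a protein that binds Disc1 and acts in neurite growth and in oligodendrocyte maturation. Zfp365 had 54.0 and 47.9 FPKM in the acupuncture libraries, 62.6 and 64.7 FPKM in the ICH libraries and 71.4, 91.1 and 72.2 FPKM in the sham libraries. The 3 groups did not overlap. Zfp706, a small zinc finger protein that opposes pluripotency in mouse embryonic stem cells, had 23.7 and 22.6 FPKM after acupuncture, 26.7 and 24.6 FPKM in ICH and 26.5, 24.8 and 26.0 FPKM in sham. Zfp445, which keeps methylation at imprinted genes together with Zfp57, had 18.6 and 22.4 FPKM after acupuncture, 20.02 and 17.3 FPKM in ICH and 21.7, 22.2 and 21.9 FPKM in sham. Next came Zfp106, an RNA-binding protein needed by motor neurons, with a mean of 19.8 FPKM, and Zfp207, a microtubule-binding protein of the spindle, with 16.8 FPKM. The means of the Zfp91 ubiquitin ligase, Zfp428, Zfp664, Zfp740 and the corepressor Zfp703 ranged from 15.8 to 10.3 FPKM. A further table row named Zfp91 under another identifier was listed at 0 in all libraries. Zfp740 shows how far ICH replicate 2 could lie from the rest, at 4.85 FPKM there, against 10.7 to 12.7 FPKM in the other 6 libraries.

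**Figure D1:**
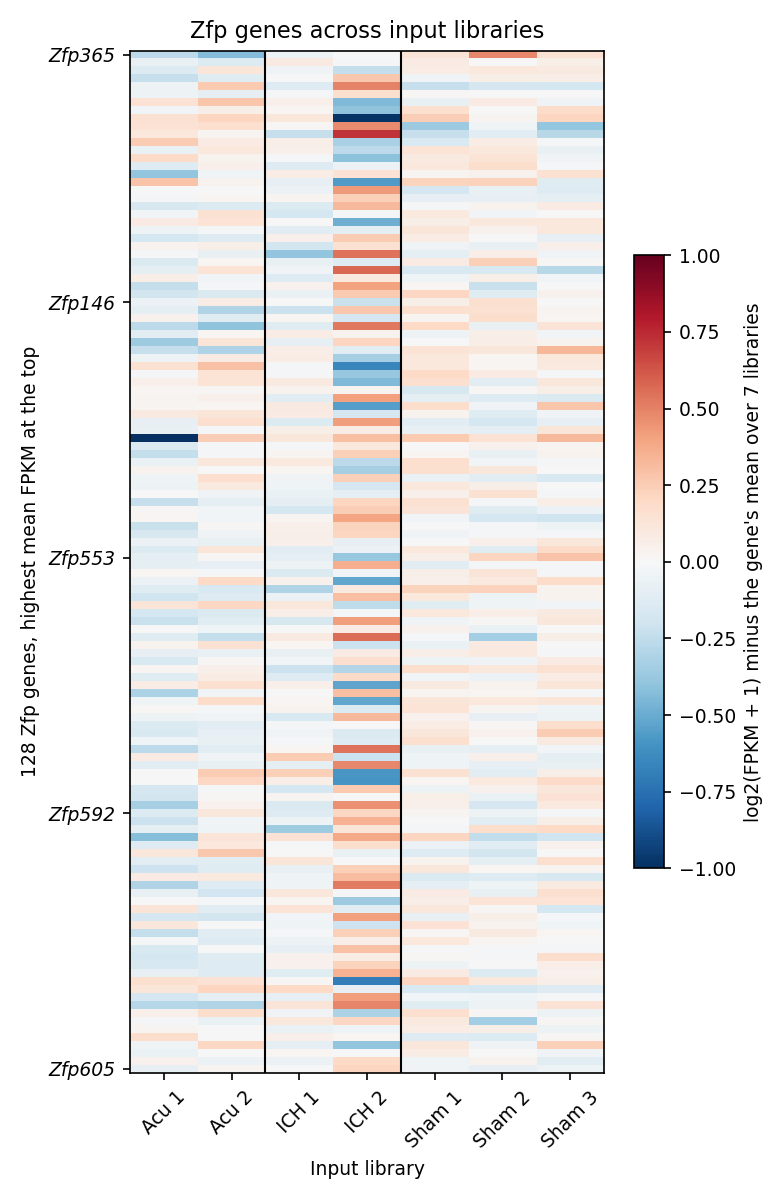
Each row is 1 of the 128 Zfp genes, ordered by mean level, and each column an input library; colour gives log2(FPKM + 1) minus the gene's mean over the 7 libraries. ICH replicate 2 holds most of the strong colours in both directions, while the sham libraries stay close to the means, and the dark blue cell in acupuncture replicate 1 is Zfp266.

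The first comparison, ICH against sham, asks how a haemorrhage changed these mRNAs. Of the 128 members, 0 were higher and 1, Zfp949, was lower at a limma adjusted p under 0.05, against 4.95% higher and 0.724% lower of all 13666 genes tested. At an unadjusted limma p under 0.05, 4 members were higher and 5 lower (7.03% in all), against 21.5% of all genes tested. The members' log2 fold changes had a median of 0.0085 and lay between -0.60 and 0.51, and 93 of the 128 (72.7%) were under 0.25 in size, against 61.2% of all genes tested. A size of 1 or more was reached by 0 members and by 3.67% of all genes tested. The 2 groups did not overlap for 17 members that were higher in ICH (13.3%) and 23 that were lower (17.97%), against 21.5% and 18.8% of all genes tested.

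Zfp949, a zinc finger gene on chromosome 9 (88548020 to 88571061, plus strand), had 3.26 and 3.03 FPKM in ICH libraries, against 4.60, 4.32 and 4.50 FPKM in sham libraries. Both ICH values lay below every sham value, and the acupuncture libraries, at 4.02 and 4.12 FPKM, lay between them. The group means were 3.14 ± 0.160 FPKM in ICH (SD, n = 2) and 4.47 ± 0.140 FPKM in sham (SD, n = 3). The log2 fold change of Zfp949 was -0.40 (SE 0.085), with a limma adjusted p of 0.0419. In acupuncture against ICH it was 0.29, with a limma adjusted p of 0.206. The ICH against sham call did not pass without any 1 of 6 libraries, with limma adjusted p from 0.0811 to 0.192; it passed without ICH replicate 1. Zfp949 overlaps Gm26461 on its own strand, so some of its reads may belong to that gene.

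No other member passed the test in ICH against sham. Those with the smallest p included Zfp703, a corepressor of the NET family, with 10.2 and 14.4 FPKM in ICH, against 7.61, 9.76 and 7.47 FPKM in sham (log2 fold change 0.51, limma adjusted p = 0.152). Zfp553 had 3.93 and 3.07 FPKM in ICH, against 4.49, 5.14 and 5.45 FPKM in sham (log2 fold change -0.42, limma adjusted p = 0.112). In both genes the ICH libraries lay outside the sham range and were far apart from each other. Zfp511 (0.35), Zfp358 (0.46), Zfp37 (0.42), Zfp579 (0.28) and Zfp260 (0.22) had the next positive log2 fold changes by p. Zfp790 (-0.35), Zfp383 (-0.47), Zfp771 (-0.44) and Zfp623 (-0.29) had the next negative ones. Their limma adjusted p lay between 0.189 and 0.241.

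The count of calls turned on a single library. Without ICH replicate 1, so that ICH replicate 2 stood alone for its group, 46 members passed in ICH against sham (24 higher, 22 lower). Then 55 also passed in acupuncture against ICH (23 higher, 32 lower). These are 35.9% and 43.0% of the members, against 38.1% and 37.4% of all genes tested, so the calls multiplied over the whole table and not among the members alone. A lone library is then assumed to vary like the other groups. Without ICH replicate 2, 0 members passed in both comparisons, against 5.17% and 0.0512% of all genes tested. Which ICH library is nearer to the state of the tissue was not tested.

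The second comparison, acupuncture against ICH, asks what the treatment changed in mice with a haemorrhage. In limma, 0 members were higher and 0 lower at an adjusted p under 0.05, against 0.0366% higher and 0.0% lower of all genes tested. At an unadjusted limma p under 0.05, 4 members were higher and 10 lower (10.9% in all), against 20.2% of all genes tested. The median log2 fold change of the members was -0.08, beside 0.05 for all genes tested, and moved to -0.0064 without ICH replicate 2. The groups did not overlap for 23 members higher after acupuncture (17.97%) and 41 lower (32.0%), against 28.8% and 20.7% of all genes tested.

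The smallest p in acupuncture against ICH was that of Zfp970. It had 2.30 and 2.27 FPKM after acupuncture, against 3.404 and 4.66 FPKM in ICH (log2 fold change -0.60, limma adjusted p = 0.187), and the sham libraries had 2.70, 2.88 and 3.46 FPKM. Both acupuncture libraries were the lowest of the 7. The next negative values were those of Zfp148, which binds GC-rich promoters (-0.31), Zfp292 (-0.47), Zfp37 (-0.51), the E4 SUMO ligase Zfp451 (-0.28) and Zfp106 (-0.31). Positive ones were those of Zfp219, a repressor that partners with Sox9 (0.56), Zfp771 (0.49), Zfp428 (0.41), Zfp383 (0.49) and Zfp513 (0.35). In each of these 10 genes, chosen by p in this same comparison, ICH replicate 2 lay farther from the acupuncture libraries than ICH replicate 1 did. Over all genes tested, ICH replicate 1 correlated with the acupuncture libraries at 0.975 and 0.969, and ICH replicate 2 at 0.921 and 0.920. The pattern is thus not particular to these genes.

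**Figure D2:**
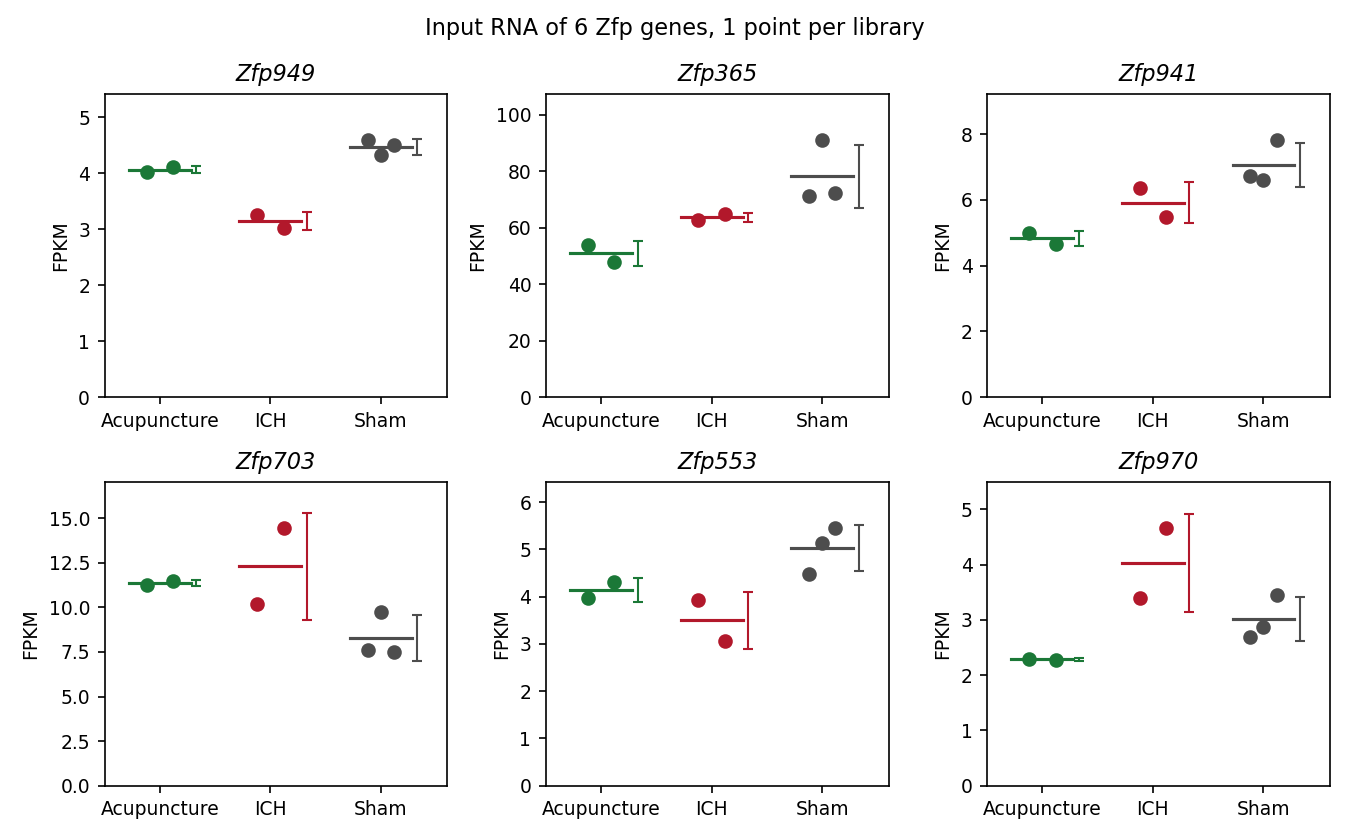
Points are FPKM of single input libraries of 6 Zfp genes in acupuncture, ICH and sham samples, with the group mean as a line and its SD as a bar. Zfp949, Zfp365 and Zfp941 passed a test; in Zfp703, Zfp553 and Zfp970 the 2 ICH libraries lie far apart, and 0 of these 3 passed.

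The third comparison, acupuncture against sham, sets treated haemorrhage beside no haemorrhage. Of the 128 members, 0 were higher and 2, Zfp365 and Zfp941, were lower in limma at an adjusted p under 0.05, against 8.47% and 3.22% of all genes tested. At an unadjusted limma p under 0.05, 3 were higher and 5 lower (6.25% in all), against 25.5% of all genes tested. In size, 114 members (89.1%) lay under 0.25, against 63.3% of all genes tested, and 0 reached 1, against 5.32%. The median was -0.06 for the members and 0.04 for all genes tested. Scaling every library to the same total gave -0.17 and -0.05, and quantile normalization -0.14 and -0.05. The groups did not overlap for 17 members that were higher (13.3%) and 40 that were lower (31.3%), against 31.8% and 23.4% of all genes tested.

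Zfp365 averaged 50.9 ± 4.34 FPKM after acupuncture (SD, n = 2) and 78.2 ± 11.2 FPKM in sham (SD, n = 3), from the library values given above. Its log2 fold change was -0.60 (SE 0.14), with a limma adjusted p of 0.0330. For ICH against sham it was -0.28 (limma adjusted p = 0.274), and both haemorrhage groups together gave -0.44 (limma adjusted p = 0.0543). Summed oligodendrocyte markers, of which 2 of 6 fell in limma, were 473 to 738 FPKM after acupuncture, against 952 to 1217 FPKM in sham, and all 6 striatal neuron markers fell. Markers of neurons in general summed to 602 to 651 FPKM after acupuncture, against 701 to 774 FPKM in sham, and 0 of 6 passed. Their part in the level of Zfp365 was not tested.

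Zfp941, whose gene lies at chr7:140807449-140822178 on the minus strand, had 5.00 and 4.67 FPKM after acupuncture, against 6.73, 6.61 and 7.82 FPKM in sham. All acupuncture values lay below all sham values, and the ICH libraries had 6.35 and 5.48 FPKM. The log2 fold change of Zfp941 was -0.46 (SE 0.11), with a limma adjusted p of 0.0384. Zfp941 overlaps Gm45785 on the same strand. Without any 1 of the 5 acupuncture or sham libraries, neither Zfp365 nor Zfp941 passed, with limma adjusted p from 0.0720 to 0.196. Without ICH replicate 1, or without ICH replicate 2, 7 members passed (3 higher, 4 lower), which is 5.47%, against 23.5% of all genes tested in either case.

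The promoters of the 2 genes that were lower after acupuncture both hold the letters AAGATGG on 1 strand, the core that Yy1 binds. They are shown over 30 bases with the match in capitals, which reads CCATCTT on the strand of the gene.
Zfp365: ccagctaggctCCATCTTcacgcccacttt
Zfp941: gctggagctggCCATCTTtggcacctttgg
The first lies at chr10:67912768-67912797 and the second, within the start of the transcript, at chr7:140822149-140822178 (GRCm38.p6, minus strand). Among the 300-base promoter windows of RefSeq, AAGATGG on either strand was in 9.93% of 141 windows of the 108 members that had one, in 7.43% of windows of other genes at or above 3 FPKM and in 6.34% of all windows. The match is a description of letters, not of binding. The window of Zfp949 held 0 matches.

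Of 5 other motifs searched on both strands, TATAAA was less frequent in windows of the members than in all windows and the other 4 were more frequent. CCGGAA, the core bound by Ets factors, was in 34.0% of the members' windows, 25.8% of those of other genes at or above 3 FPKM and 14.9% of all windows. GGGCGG, the core bound by Sp1, was in 51.8%, 64.2% and 35.7%. TGACGTCA, bound by Creb, was in 4.26%, 3.09% and 1.79%. TATAAA was in 11.3%, 6.70% and 13.6%, and the palindrome that Nrf1 binds in 1.42%, 1.94% and 0.971%. The median GC content of the windows was 58.0%, 61.7% and 52.7%.

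Among the members that did not pass in acupuncture against sham, the smallest p with a positive log2 fold change were those of Zfp768 (0.30) and Zfp110 (0.32). Zfp110, or Nrif, binds the neurotrophin receptor p75; it had 3.46 and 3.77 FPKM after acupuncture, 3.72 and 2.88 FPKM in ICH and 2.69, 2.64 and 2.76 FPKM in sham (limma adjusted p = 0.123). Zfp703 (0.42), Zfp579 (0.24), Zfp263 (0.23) and Zfp825 (0.17) followed. On the negative side were Zfp704 (-0.25), Zfp652 (-0.26), Zfp871 (-0.29) and Zfp275 (-0.21). Limma adjusted p for these 10 ranged from 0.117 to 0.350. The acupuncture and sham libraries overlapped in Zfp825 only among the 10, but a choice by smallest p favours groups that do not overlap. Of all genes tested, 31.8% were higher and 23.4% lower without overlap.

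Joining both haemorrhage groups against sham gave 0 members higher and 0 lower in limma, against 8.06% and 2.56% of all genes tested. At an unadjusted limma p under 0.05, 3 members were higher and 6 lower (7.03% in all), against 24.0% of all genes tested. These comparisons share libraries, so their members' values are not independent of each other. In both haemorrhage groups against sham, 115 members (89.8%) lay under 0.25 in size, against 70.4% of all genes tested. Zfp703 had the highest log2 fold change there (0.47) and Zfp365 the lowest (-0.44).

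**Figure D3:**
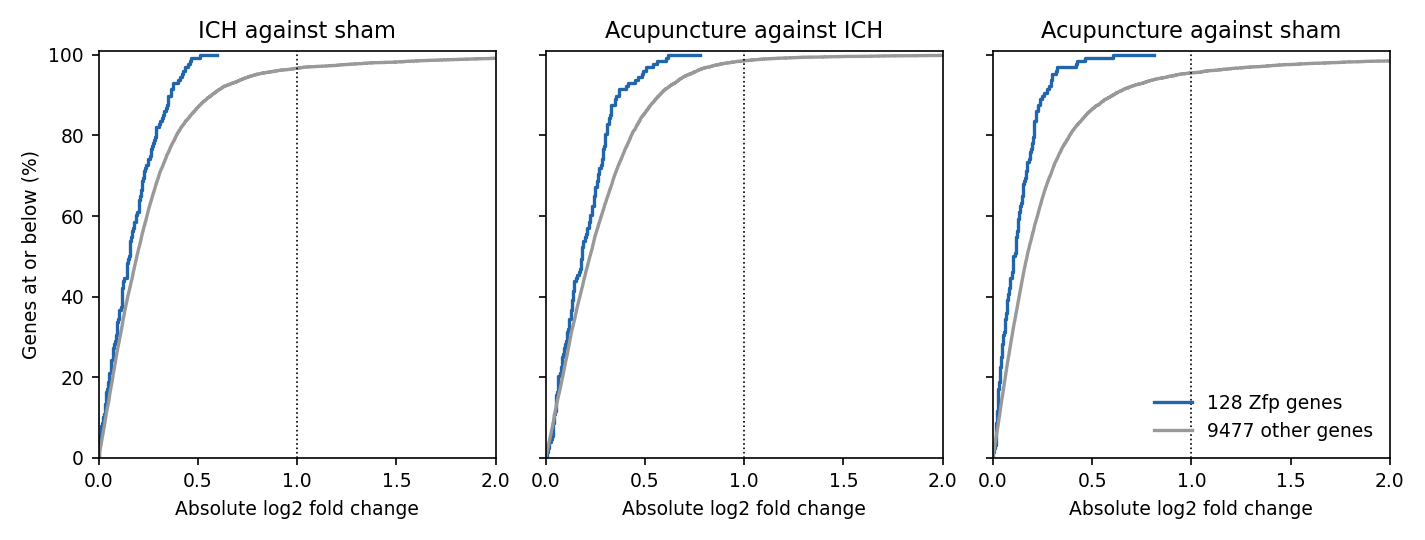
Curves give the share of genes whose absolute log2 fold change is at or below the value on the horizontal axis, for 128 Zfp genes and 9477 others at or above 3 FPKM, in 3 comparisons of input RNA. The curve of the Zfp genes ends before the dotted line at 1 in each, while 3.32%, 1.498% and 4.48% of the other genes reach it.

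By role, the 8 members listed for RNA binding and ribosomes had 0 calls in any comparison. Zfp598, the ubiquitin ligase that marks collided ribosomes, had 7.96 and 9.13 FPKM after acupuncture, 7.09 and 8.00 FPKM in ICH and 8.76, 7.96 and 8.08 FPKM in sham, groups that overlap. Zfp622, which acts in maturation of the large ribosomal subunit, had 2.41 FPKM in ICH replicate 2 and 4.04 to 4.47 FPKM in the other libraries. Zfp207 had 13.9 to 14.6 FPKM in sham, and all 4 haemorrhage libraries were above that (15.9 and 19.999 FPKM after acupuncture, 15.1 and 23.7 FPKM in ICH), with a log2 fold change of 0.34 for both groups together. The double-stranded RNA-binding protein Zfp346, the splicing factors Zfp326 and Zfp830, Zfp106 and Zfp91 had log2 fold changes between -0.31 and 0.27 in the 3 comparisons.

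Of the 13 genes listed for neural development and glia, 7 were members, and Zfp365 was the 1 called. Zfp24, which oligodendrocytes need for myelination, had 5.71 and 5.85 FPKM after acupuncture, 5.66 and 4.58 FPKM in ICH and 5.42, 4.76 and 5.12 FPKM in sham. Zfp335, needed by neural progenitors, had 4.61 and 5.49 FPKM after acupuncture, 4.64 and 5.84 FPKM in ICH and 4.52, 4.37 and 4.20 FPKM in sham. Zfp462, linked to a human neurodevelopmental disorder, had 3.76 and 4.25 FPKM after acupuncture, 4.24 and 5.50 FPKM in ICH and 5.24, 4.56 and 4.87 FPKM in sham. None of these 3 passed. Zfp423, Zfp488, Zfp503, Zfp521, Zfp536 and Zfp711 lay under the minimum of 3 FPKM.

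Of the 18 genes listed for chromatin, imprinting and transcription, 10 were members and 0 of them passed in any comparison. Their log2 fold changes in acupuncture against sham ran from -0.21 for Zfp644, a partner of the methyltransferase G9a, to 0.32 for Zfp110. Zfp281, a regulator of pluripotency, had 7.14 and 7.27 FPKM after acupuncture, 7.29 and 10.4 FPKM in ICH and 8.01, 8.34 and 8.66 FPKM in sham. Zfp384, Zfp532, Zfp592, Zfp609 and Zfp687 were between -0.18 and 0.27 in each of the 3 comparisons.

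Zfp genes below 3 FPKM included calls in the other direction. Zfp36, or tristetraprolin, which binds AU-rich elements and speeds the decay of inflammatory mRNAs, had 3.52 and 2.72 FPKM after acupuncture, 2.41 and 3.77 FPKM in ICH and 0.869, 1.25 and 1.02 FPKM in sham. All 4 haemorrhage libraries were above all 3 sham libraries, and the log2 fold change was 1.01 in acupuncture against sham (limma adjusted p = 0.0129) and 0.98 in ICH against sham (limma adjusted p = 0.0231). The ICH against sham call of Zfp36 did not pass without ICH replicate 2 or any 1 sham library (limma adjusted p from 0.0578 to 0.0944), nor did the acupuncture call without acupuncture replicate 1 or sham replicates 1 or 3 (0.0510 to 0.101). Zfp217, a repressor reported to bind Mettl3, had 1.39 and 1.48 FPKM after acupuncture, against 0.514, 0.771 and 0.571 FPKM in sham (log2 fold change 0.59, limma adjusted p = 0.0246). Zfp710, named after its values were seen, had 3.44 and 3.31 FPKM after acupuncture, against 2.49, 2.47 and 2.35 FPKM in sham (log2 fold change 0.35, limma adjusted p = 0.0441). Neither Zfp217 nor Zfp710 passed without acupuncture replicate 1 or 2 or sham replicate 1 or 3, and Zfp710 also did not without sham replicate 2. With quantile normalization neither passed (limma adjusted p = 0.0871 for Zfp217 and 0.134 for Zfp710), and with equal totals Zfp710 did not (limma adjusted p = 0.0897), so both calls depend on the scaling. With the minimum at 1 FPKM, 3 of 282 Zfp genes were higher (1.06%) and 2 lower (0.709%) in acupuncture against sham, against 8.47% and 3.22% of all genes tested. In ICH against sham 1 was higher (0.355%) and 1 lower (0.355%), against 4.95% and 0.724%.

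The machinery through which KRAB zinc finger proteins act was listed as 21 genes, of which 20 were tested. Trim28, the corepressor that KRAB domains bind, had 18.4 and 21.1 FPKM after acupuncture, 18.03 and 20.1 FPKM in ICH and 18.1, 18.5 and 18.3 FPKM in sham, and Setdb1 also did not pass in any comparison. Uhrf1, which binds hemimethylated DNA for Dnmt1 and is a gene of dividing cells, had 3.04 and 2.33 FPKM after acupuncture, 2.85 and 1.56 FPKM in ICH and 0.306, 0.278 and 0.366 FPKM in sham. It rose in acupuncture against sham (log2 fold change 1.48, limma adjusted p = 0.00345) and in ICH against sham (1.25, limma adjusted p = 0.0113). Hdac1 rose in acupuncture against sham (0.56, limma adjusted p = 0.00709). No other gene of the 20 passed in the 3 comparisons of pairs. In ICH against sham 1 of 20 was thus higher, against 4.95% of all genes tested. In acupuncture against sham 2 of 20 were higher, against 8.47%. These counts lie near the shares of all genes tested. Of 24 tested C2H2 zinc finger genes with other names, 0 were higher and 1 was lower in acupuncture against sham. The shares of all genes tested were 8.47% and 3.22%. The 1 was Bcl11b, a factor of striatal and deep cortical neurons (log2 fold change -0.65, limma adjusted p = 0.0307). All 6 striatal neuron markers fell in that comparison too. In the other 2 comparisons of pairs 0 of the 24 passed.

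All 128 members had at least 1 m6A peak in each of the 3 group lists, against 96.0%, 96.1% and 96.0% of all 9605 genes at or above 3 FPKM in the acupuncture, ICH and sham lists. The log2 of IP over input of each peak is the authors' value for a whole group, so no spread between libraries can be given. Members held 454, 486 and 447 peaks in the acupuncture, ICH and sham lists, with a median of 3 per gene. The strongest peak of each member had a median log2 IP over input of 2.30, 2.35 and 2.27, against 1.59, 1.95 and 1.49 in other genes at or above 3 FPKM. In 72 members it was at least 2 in all 3 lists, in 15 at least 3, and in 4 (Zfp512, Zfp358, Zfp946 and Zfp938) it was under 1 in at least 1 list. Of the members' acupuncture peaks 88.1% overlapped an ICH peak and 83.5% a sham peak, and of the ICH peaks 81.7% overlapped a sham peak. The shares of the other list were 81.9%, 82.8% and 87.7%. Such overlaps were not computed for other genes, whose peaks had a shorter median span. They therefore show nothing particular to the members.

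**Figure D4:**
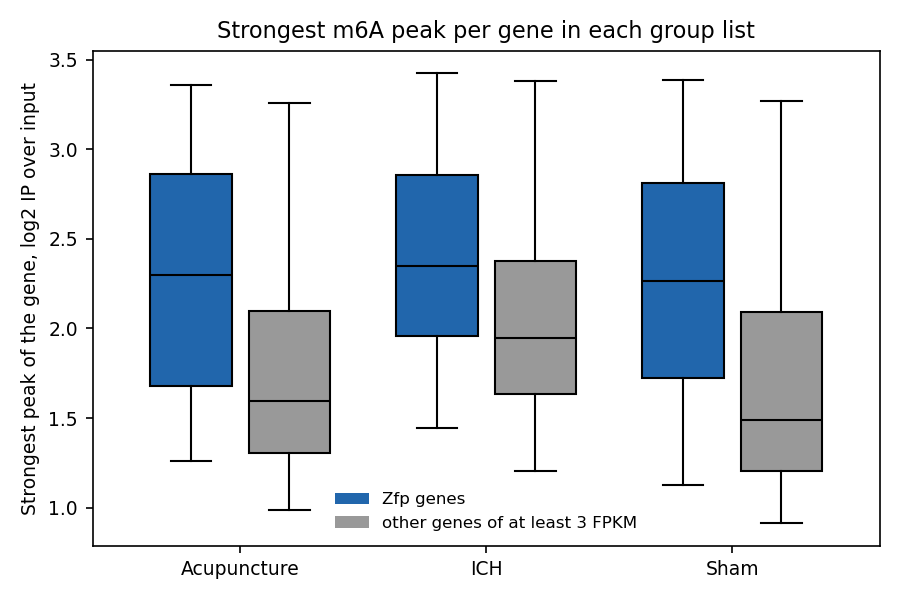
Boxes show the strongest m6A peak of each gene, as the authors' log2 IP over input, in the acupuncture, ICH and sham lists, for Zfp genes and for others at or above 3 FPKM with a peak; the line is the median, the box the range from the 25th to the 75th percentile and the whiskers the 5th and 95th percentiles. The medians of the Zfp genes are 2.30, 2.35 and 2.27, above those of the other genes in each list.

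The strongest peaks were those of Zfp451, a SUMO ligase that acts with Tdp2 in DNA repair, at 4.41, 4.19 and 4.32 in acupuncture, ICH and sham. In the acupuncture list this peak spanned chr1:33800357-33813713 on the minus strand and was annotated as exonic. Zfp639 followed with 3.87, 3.70 and 4.08, and Zfp638, which takes part in silencing unintegrated retroviral DNA, with 3.65, 4.12 and 3.88. The ICH value of Zfp638 belongs to a separate intronic peak of 300 bases, and its peak shared by the 3 lists had 3.75 in ICH. Zfp790, Zfp830, Zfp91, Zfp1, Zfp142, Zfp629 and Zfp87 were next, each above 3 in all 3 lists.

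A single peak over Zfp830, chr11:82764345-82765935 on the plus strand, stood in all 3 lists, and its first base is the capital A printed above. These bounds are those of the whole gene, so the peak does not place a mark at that base. In the acupuncture, ICH and sham lists, 7122, 7205 and 7138 peaks began exactly at the lower coordinate of a gene. The log2 IP over input of the Zfp830 peak was 3.57 in acupuncture, 3.65 in ICH and 3.34 in sham. Peaks with a 5′ bound within 50 bases of the start were also those of Zfp1 (3.26, 3.33 and 3.33), Zfp329 (3.22, 3.33 and 3.01), Zfp281 (2.98, 2.93 and 3.00), Zfp958 (2.44, 2.52 and 2.66) and Zfp263 (2.95, 2.88 and 2.39). Peaks with such a bound, from a RefSeq start, were found for 31, 32 and 33 of the 108 members with a promoter window in the acupuncture, ICH and sham lists. These are 28.7%, 29.6% and 30.6%, against 19.5%, 23.9% and 22.0% of other genes at or above 3 FPKM. Members were counted as starting with A if any of their annotated starts did, not only the start at the peak. Such an A was found in 7 of 31, 9 of 32 and 11 of 33 members with such a peak. It was found in 25 of 77, 23 of 76 and 21 of 75 of those without one. The order of the 2 shares thus differed between lists.

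By place, 58.6%, 58.4% and 61.5% of the members' peaks in the acupuncture, ICH and sham lists were annotated to the 3′ UTR, against 57.9%, 54.9% and 57.8% in other genes at or above 3 FPKM and 54.7%, 52.3% and 54.5% of all peaks. Among peaks with an adjusted p under 0.01 and a log2 of at least 1, the share in the acupuncture list was 61.8% for the members and 62.8% for all peaks, so the order there turned. For the 5′ UTR the members' shares were 18.3%, 18.7% and 16.3%, against 13.3%, 14.3% and 13.7% in other genes at or above 3 FPKM and 11.2%, 12.1% and 11.6% of all peaks. The members' peaks were long, with a median span on the genome, introns included, of 930.5 bp, 725 bp and 800 bp, against 500 bp, 550 bp and 525 bp in other genes at or above 3 FPKM. A long peak that covers several exons carries a single place. Among peaks spanning at most 1000 bp, a limit chosen after seeing the data, the 5′ UTR shares were 9.83%, 9.56% and 10.4%, against 8.27%, 8.62% and 9.16% of all peaks, and the 3′ UTR shares 68.4%, 69.1% and 67.1%, against 60.0%, 58.3% and 59.4%.

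In ICH against sham, the authors' deposited table listed 217 peaks of 107 members, of which 120 were higher and 75 lower at their adjusted p under 0.05. These are 55.3% and 34.6% of the listed peaks, against 69.8% and 18.0% of all peaks in the authors' deposited table. The 2 directions fell in the same gene in 27 members, while 49 had higher peaks alone, 27 lower peaks alone and 25 had 0 called peaks. Of the 128 members, 103 thus had a called peak, 76 a higher one and 54 a lower one. Of the 9477 other genes at or above 3 FPKM, 7765 had a called peak, 7033 a higher one and 2113 a lower one. In acupuncture against ICH, the authors' deposited table gave 28 higher and 88 lower among 169 listed peaks of members (16.6% and 52.1%), against 11.5% and 62.2% of all peaks. In acupuncture against sham, the authors' deposited table gave 45 higher and 51 lower among 143 (31.5% and 35.7%), against 37.6% and 26.1% of all peaks. These balances moved with the choice of peaks. Among called peaks spanning at most 1000 bp, a limit chosen after seeing the data, the authors' deposited table had 81 higher and 25 lower in ICH against sham for the members (76.4% higher, against 85.5% of all such peaks). It had 8 higher and 62 lower in acupuncture against ICH (88.6% lower, against 88.1%) and 32 higher and 14 lower in acupuncture against sham (69.6% higher, against 67.7%). The difference from all peaks was thus near 0 in both comparisons with acupuncture, and the majority in acupuncture against sham turned from lower to higher. Among calls with a difference of at least 1 the authors' deposited table had 25 of 29 higher in ICH against sham for the members (86.2%, against 81.4% of all such peaks). It had 10 of 12 lower in acupuncture against ICH (83.3%, against 73.7%) and 5 of 8 higher in acupuncture against sham (62.5%, against 57.9%). On these few peaks, in all 3 comparisons, the members' share lay on the other side of that of all peaks than it did over all calls (61.5% higher against 79.5%, 75.9% lower against 84.4% and 46.9% higher against 59.0%). Beside other genes at or above 3 FPKM the side stayed the same in ICH against sham (87.5% higher, and 82.3% over all calls). It changed in acupuncture against ICH (80.8% lower, and 88.1% over all calls) and in acupuncture against sham (60.9% higher, and 61.8% over all calls).

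The shares differed most from those of other genes among strong peaks, a difference that was not tested because peaks within a group are not replicates. Among called peaks whose mean of the 2 groups was at least 2 on the log2 scale, the authors' deposited table had 16 of 51 higher in ICH than in sham for the members (31.4%) and 60.5% of 1799 for other genes at or above 3 FPKM. In acupuncture against ICH it was 16 of 30 in the authors' deposited table (53.3%), against 22.9% of 1521, and in acupuncture against sham 5 of 31 (16.1%), against 27.8% of 1009. Among called peaks with a mean under 1, 70.8% were higher for the members and 83.5% for the other genes in the authors' deposited table of ICH against sham. The authors' deposited table of acupuncture against ICH had 14.7% for the members and 14.9% for the other genes, and the authors' deposited table of acupuncture against sham 61.5% for the members and 65.3% for the other genes. These comparisons share groups, so the ICH samples enter both of the first 2. Nearly all of these strong peaks were long: 6 of 51, 6 of 30 and 2 of 31 of the members' peaks spanned at most 1000 bp. In those few the authors' deposited tables had 3 of 6 higher in ICH than in sham, against 84.7% for other genes at or above 3 FPKM, 1 of 6 higher after acupuncture than in ICH, against 10.1%, and 0 of 2 higher after acupuncture than in sham, against 56.2%.

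**Figure D5:**
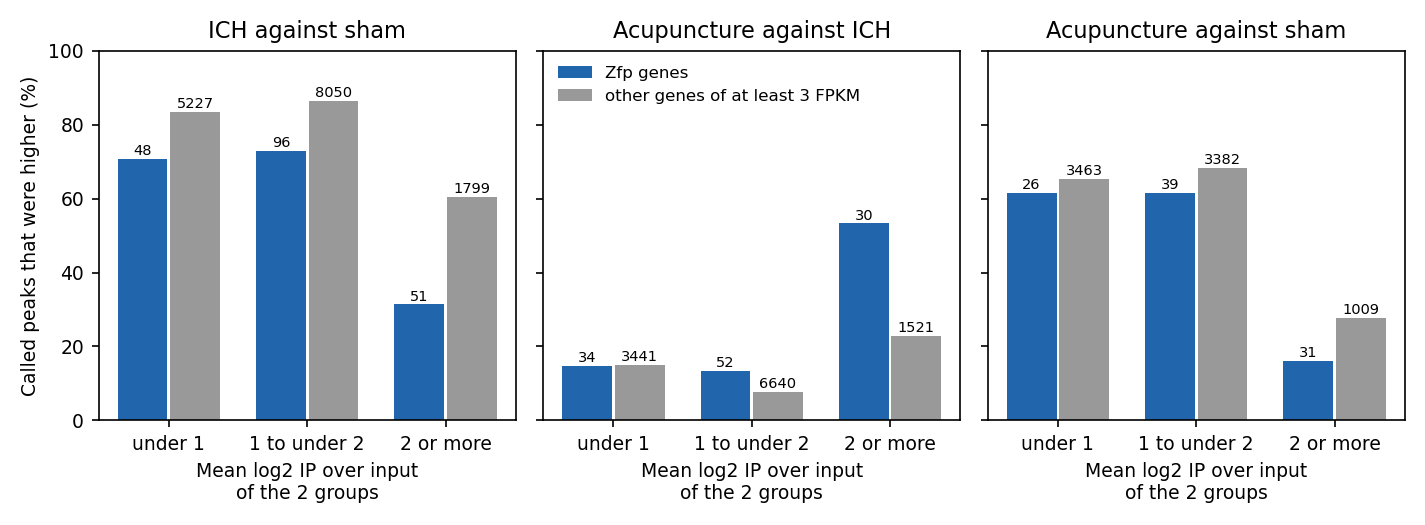
Bars give the share of called differential peaks that were higher in the first group named in each title, by the mean log2 IP over input of the 2 groups, for Zfp genes and for other genes at or above 3 FPKM; the number of called peaks stands above each bar. In peaks of at least 2 the share for Zfp genes is 31.4% in ICH against sham, 53.3% in acupuncture against ICH and 16.1% in acupuncture against sham.

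In the authors' deposited table of ICH against sham, the 5′ UTR peak of Zfp949 at chr9:88548245-88552722 had a log2 IP over input of 1.74 in ICH and 0.07 in sham, a difference of 1.67 (their adjusted p = 2.08e-10). Its RNA, as given above, was lower in ICH. In the authors' deposited table of acupuncture against ICH, the peak of Zfp949 covering this place had 1.05 after acupuncture and 1.54 in ICH, and their adjusted p was 0.112. The same table had a called intronic Zfp949 peak of 100 bases, at 0.03 after acupuncture and 1.77 in ICH (difference -1.73, adjusted p = 0.0101 in the authors' deposited table). The strongest Zfp949 peak of the ICH list itself had 1.58, below the ICH values of 1.74 and 1.77. Zfp580 had a 3′ UTR peak at chr7:5053541-5053715 with 0.61 in ICH and 1.80 in sham in the authors' deposited table (difference -1.19, their adjusted p = 4.26e-17). In the authors' deposited table of acupuncture against sham it was also lower, at 0.81 after acupuncture and 1.71 in sham.

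Zfp865 and Zfp579, which lie near Zfp580 on chromosome 7, changed in both of the comparisons with ICH. The authors' deposited table had the exonic Zfp865 peak at 0.38 in ICH and 1.44 in sham, and at 1.02 after acupuncture and 0.37 in ICH. It had the 5′ UTR peak of Zfp579 at 0.32 in ICH and 1.36 in sham, and the authors' deposited table of acupuncture against ICH had it at 0.89 after acupuncture and 0.31 in ICH. The 3 lie within a short stretch of one chromosome and share the ICH samples, so they are not independent cases. Zfp868 had the opposite order in the authors' deposited tables, with an exonic peak at 2.71 in ICH and 0.91 in sham, and at 1.40 after acupuncture and 2.70 in ICH.

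The highest difference in the authors' deposited table of ICH against sham, 4.30, was that of a 5′ UTR peak of Zfp931, with 4.64 in ICH and 0.34 in sham. In the authors' deposited table of acupuncture against ICH, a nearly identical region of Zfp931 had 1.90 in ICH, and the strongest Zfp931 peak of the ICH list itself, over nearly the same bases, had 1.56. The value of 4.64 thus stands in 1 table alone, and the cause of these differences was not tested. The 3′ UTR peak of Zfp931 had 0.06 in ICH and 1.79 in sham in the authors' deposited table, a difference of -1.73. The 1 peak of Zfp931 in the sham list had 1.28, below that sham value. In the authors' deposited table of acupuncture against sham the largest differences were those of Zfp414 (5′ UTR, -2.07), Zfp654 (exonic, -1.37), Zfp81 (3′ UTR, 1.38) and Zfp367 (exonic, 1.14). The Zfp414 peak had 1.82 in sham there, while the 1 peak of Zfp414 in the sham list had 1.48. Zfp365, whose RNA was lower after acupuncture than in sham, was listed with 0 peaks in the authors' deposited table for that comparison, and Zfp941 with 0 as well.

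For Zfp365, the authors' deposited table of ICH against sham had 4 peaks, all higher in ICH, by 0.09 to 0.79. The authors' deposited table of acupuncture against ICH had 5 of its peaks, all lower after acupuncture, by 0.11 to 0.64 in size, 4 of them called. The peak over its 5′ part, reaching to 67912382 on chromosome 10, had 1.47 in the acupuncture list and 1.49 in the sham list.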

How the data were processed

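Gene levels of the 7 input libraries were deposited by the authors as FPKM, per the file headers, and depth per library is unknown, so no counting interval can be given. Peak lists hold the authors' log2 of IP over input per group, and the differential tables their log2 values in both groups of a pair and the difference; the p-value and adjusted p-value beside each peak are the authors' own, per the file headers. Per the submitters' processing notes, the tools were fastp, HISAT2, HOMER, StringTie and edgeR, with no versions or roles. The peak caller was not named. These notes name a human build, whereas 96.9% of the members had a start or end within 1000 bp of RefSeq's GRCm38.p6, so coordinates are given on that build, counted from 1. Columns headed control and EA were matched to the sham and acupuncture samples by elimination, and 2 FPKM columns that match no sample were not used. Whether those samples entered the peak files is not known.

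Genes averaging 1 FPKM or more were fitted in limma 3.58.1 (R 4.3.3) on log2(FPKM + 1), a scale that understates the change of low genes, with 1 mean per group and a variance trend, two-sided, and Benjamini-Hochberg adjusted over 13666 genes. The fit was tested on simulated data. Tables and figures used Python 3.11.15, pandas 2.3.3, numpy 2.4.6, scipy 1.17.1 and matplotlib 3.10.9. Promoter windows came from RefSeq. The rule for named genes took, per comparison, called members, then those with the smallest p up to 6 in each direction. It also took the 10 most abundant, the members of 3 role lists, the strongest peaks and the 6 largest differential peaks per direction. Members, lists and rules were chosen with earlier results of these data known. Alternatives changed the pseudocount, filter, scaling, variance trend, member minimum and peak thresholds, used a replicate block, and left out each library. Same-numbered libraries of different groups had deviations correlated at -0.01 to 0.09, and the numbers were not taken to pair the samples. In a group of 2 the deviations mirror each other, so this check cannot exclude pairing.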

Additional observations from a re-analysis of the deposited data

How the results depend on the processing

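FPKM gives no read counts, so what depth limits cannot be stated, and with 2 libraries in 2 of the groups a single library can decide a call. Leaving out 1 library in turn gave 0 to 46 called members in ICH against sham (1 with all 7), 0 to 55 in acupuncture against ICH (0 with all), 0 to 7 in acupuncture against sham (2 with all) and 0 to 28 for both haemorrhage groups (0 with all); the highest counts came without ICH replicate 1, matched in acupuncture against sham by that without ICH replicate 2. Calls over all genes tested moved too: without ICH replicate 1 they were 38.1%, 37.4%, 23.5% and 30.4% in these 4 comparisons, beside 35.9%, 43.0%, 5.47% and 21.9% of the members. The members' medians then ranged from -0.034 to 0.049 in ICH against sham, from -0.14 to -0.0064 in acupuncture against ICH and from -0.11 to -0.011 in acupuncture against sham.

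With the replicate block, 0 members were called in each of the 2 comparisons that had calls, against 351 and 750 of all genes tested. The limma adjusted p were then 0.249 for Zfp949, 0.126 for Zfp365 and 0.182 for Zfp941. Whether the shared numbers pair the samples is not known. With no filter, where more genes were tested and the variance trend was fitted anew, the counts in the 2 were also 0 and 0. Calls over all genes went from 776 to 658 in ICH against sham and from 1598 to 1576 in acupuncture against sham. Why the members' counts fell was not tested. With members from 1 FPKM (282 genes) the counts were 2 in ICH against sham, 5 in acupuncture against sham and 4 for both haemorrhage groups. Of all genes tested, 5.68%, 11.7% and 10.6% were called in these comparisons. With members from 5 FPKM the count in ICH against sham was 0. Equal totals and quantile normalization each called 3 members, all lower, for both haemorrhage groups against sham. Of all 13666 genes tested, 1472 and 1432 were called there. The members' medians were -0.18 and -0.13 in acupuncture against ICH, -0.17 and -0.14 in acupuncture against sham and -0.12 and -0.10 for both groups. The cause was not tested.

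Among peaks spanning at most 1000 bp, chosen after seeing the data, the members' 3′ UTR shares were 68.4%, 69.1% and 67.1% in acupuncture, ICH and sham and the 5′ UTR shares 9.83%, 9.56% and 10.4%. Their differential calls were then 81 higher and 25 lower in ICH against sham, 8 higher and 62 lower in acupuncture against ICH and 32 higher and 14 lower in acupuncture against sham. With a difference of at least 1, calls were 25 higher and 4 lower in ICH against sham. They were 2 higher and 10 lower in acupuncture against ICH, and 5 higher and 3 lower in acupuncture against sham. These majorities were 86.2%, 83.3% and 62.5% of the members' calls. The same directions held 81.4%, 73.7% and 57.9% of all such peaks and 87.5%, 80.8% and 60.9% of those of other genes at or above 3 FPKM. At the authors' adjusted p under 0.01 there were 90 higher and 59 lower in ICH against sham (60.4% higher, against 81.0% of all such peaks). Acupuncture against ICH then had 16 higher and 61 lower (79.2% lower, against 87.7%). Acupuncture against sham had 21 higher and 37 lower (63.8% lower, against 41.6%). The members' majority in acupuncture against sham, 45 higher and 51 lower over all called peaks, thus turned under the limits on span and on difference. Under the stricter adjusted p it stayed lower. Alternatives were not run for single peaks. None of the Zfp genes named for an RNA call reversed its direction in the alternatives run. The calls of Uhrf1, Hdac1 and Bcl11b were not followed through the alternatives. The members' median in ICH against sham, close to 0, took either sign.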

Other observations

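Zfp266 was chosen for mention once its values were known. It stood at 1.17 FPKM in the first acupuncture library and 5.74 FPKM in the other, against 5.14 and 5.99 FPKM in ICH and 5.80, 5.28 and 6.10 FPKM in sham. Its group mean after acupuncture, 3.46 ± 3.23 FPKM (SD, n = 2), thus rests on 2 libraries that disagree, and its log2 fold change in acupuncture against sham, -0.81, was the lowest of the members and did not pass in limma. Zfp266 has 4 other Zfp genes within 200 kb. Its m6A peak over the 5′ part of the gene, on chromosome 9, had a log2 IP over input of 2.45 in the acupuncture list, 2.54 in the ICH list and 2.64 in the sham list, although the bounds differed between lists.

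Members with another Zfp gene within 200 kb and members without one had different medians in the comparisons with ICH. In ICH against sham the median log2 fold change was -0.04 for the 63 with a neighbour and 0.05 for the 65 without. In acupuncture against ICH it was 0.01 and -0.14, and in acupuncture against sham -0.05 and -0.08. These differences were not tested, and neighbours can share reads.

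Between the ICH libraries, 57.8% of the members were higher in replicate 2 than in replicate 1, against 44.7% of other genes at or above 3 FPKM. Between the acupuncture libraries, 68.0% of the members were higher in replicate 2, against 48.7% of the others.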
